A study of Mus musculus with 18 samples.

Results

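The transcripts of 10 genes were followed: the receptors for the Fc part of IgG Fcgr1, Fcgr2b and Fcgr3, their signalling chain Fcer1g, and the macrophage markers Csf1r, Cd68, Lyz2, C1qa, C1qb and C1qc. They were 10 of the 46869 gene symbols that had a value in every library, and all 10 were found. They were chosen by the measured KO-to-Het differences themselves, because Fcgr3 was lower in KO while the other macrophage genes were higher. Those differences are therefore described without a test. Tests are given only for the comparisons of cell fractions and ages and for genes outside the 10. The fraction and age comparisons of the 10 reuse the libraries behind that choice, so their tests are not free of it.

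Poly(A) RNA of male C57BL/6J mice was sequenced in 18 libraries, 3 in each of 6 groups. The genotypes were Zfp541+/- (Het) and Zfp541-/- (KO), so the controls carried 1 mutant allele and no wild-type mice were among these samples. For each genotype there were whole testes at postnatal day 14 (P14), whole testes at P18 and spermatocytes at P18. The series calls the replicates biological. Whether each library came from 1 animal, and how the spermatocytes were isolated, is not given in the sources used here, so the p-values measure the spread between these libraries.

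Fc gamma receptors bind IgG on immune complexes. Fcgr1 and Fcgr3 are activating receptors that need the gamma chain Fcer1g to reach the cell surface and to signal, whereas Fcgr2b carries its own inhibitory motif. Csf1r is the receptor for the growth factors that keep macrophages alive, Cd68 is a lysosomal glycoprotein, and Lyz2 is a lysozyme. C1qa, C1qb and C1qc are the chains of C1q, a part of the first component of complement, made largely by tissue macrophages. In the testis, macrophages sit in the interstitium and around the tubules, outside the compartment that holds spermatocytes.

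Levels are given as the deposited RPKM (reads per kilobase and per 1000000 reads; P14 testis and spermatocytes) or FPKM (the same with fragments; P18 testis), rescaled between libraries, and are per length of gene. Depth ran from 9.26 to 18.31 megareads in the spermatocyte libraries, from 12.81 to 16.95 in those of P18 testis and from 17.96 to 21.12 at P14. Zfp541 itself was lower in KO than in Het libraries in all 3 sets, without overlap: 3.42 to 5.39 against 8.32 to 10.1 at P14, 8.44 to 10.1 against 20.2 to 27.3 in P18 testis and 11.5 to 13.4 against 32.4 to 57.8 in spermatocytes (limma, adjusted p = 0.0667, 0.00248 and 0.000817). The summed level of 15 Sertoli cell markers was 1210 to 1530 in P18 Het testis and 92.1 to 139 in Het spermatocytes, and that of 15 pachytene spermatocyte markers was 1560 to 2410 and 2610 to 4770.

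Fcgr3 (ENSMUSG00000059498.13, minus strand, chr1:171051174-171064935 in GRCm38) had the largest KO-minus-Het difference in size among the 10 genes in each of the 3 sets, and it was the one that pointed down at P18. Its annotation in GENCODE holds 3 starts, of which the 2 of protein-coding transcripts lie 5.53 kb apart. The start shared by Fcgr3-201 and Fcgr3-204 is preceded by the 250 bases shown here. The transcript Fcgr3-202 starts upstream, and its first intron contains the miRNA gene Mir6546 (chr1:171064591-171064652, minus strand), whose hairpin is shown because its reads can be set beside those of Fcgr3. The promoters of Fcgr1 and C1qc are shown for comparison, because with Fcgr3 they were the members whose RefSeq promoter window held GAGGAAG, a form of the site bound by the myeloid factor PU.1. The windows run 5′ to 3′ on the strand of the gene and end at the base before the RefSeq start, except that of C1qc, which is cut to the 99 bases before the start of its GENCODE model because that lies upstream. Capitals mark the site, printed as CTTCCTC because it lies on the opposite strand. The table of RefSeq promoters (GRCm38.p6) matched 8 of the 10 genes, and 13.6% of its 32851 windows held the site on either strand. A match describes these letters and not binding.
Fcgr3 promoter, chr1:171059404-171059653, minus strand: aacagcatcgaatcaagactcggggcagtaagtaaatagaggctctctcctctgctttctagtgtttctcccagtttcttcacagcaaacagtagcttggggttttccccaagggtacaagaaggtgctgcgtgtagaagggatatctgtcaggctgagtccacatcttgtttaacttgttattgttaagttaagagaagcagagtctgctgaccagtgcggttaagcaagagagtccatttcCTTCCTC
Fcgr1 promoter, chr3:96293970-96294219, minus strand: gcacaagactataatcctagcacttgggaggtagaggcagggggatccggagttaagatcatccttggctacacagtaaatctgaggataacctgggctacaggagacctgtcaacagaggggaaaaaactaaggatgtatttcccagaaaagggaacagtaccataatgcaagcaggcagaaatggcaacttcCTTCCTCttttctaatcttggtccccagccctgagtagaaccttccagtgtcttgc
C1qc promoter, chr4:136893066-136893164, minus strand: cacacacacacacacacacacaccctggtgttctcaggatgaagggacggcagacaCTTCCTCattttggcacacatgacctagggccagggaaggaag
Mir6546 hairpin, chr1:171064591-171064652, minus strand: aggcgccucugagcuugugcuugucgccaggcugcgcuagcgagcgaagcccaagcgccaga

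In Fcgr3 the site lay 1 to 7 bases before the start, in Fcgr1 50 to 56 bases before it and in C1qc 37 to 43 bases before the GENCODE start. Their levels differ widely, as given next for each gene.

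In P14 testis, Fcgr3 was at 3.61, 2.30 and 2.99 in the 3 Het libraries (2.97 ± 0.655, SD, n = 3; 64 to 109 reads) and at 1.92, 1.93 and 0.914 in KO (1.59 ± 0.584; 28 to 65 reads). In P18 testis it was at 15.0, 11.0 and 7.31 in Het (11.1 ± 3.83; 218 to 416 reads) and at 2.6, 2.83 and 2.52 in KO (2.65 ± 0.162; 64 to 93 reads). In P18 spermatocytes it was at 13.0, 11.2 and 20.7 in Het (15.0 ± 5.09; 180 to 556 reads) and at 0.361, 0.642 and 0.574 in KO (0.526 ± 0.147; 8 to 15 reads). All KO libraries lay below all Het libraries of their set, so the KO mean was 53.5%, 23.9% and 3.51% of the Het mean. The log2 difference was -0.76 ± 0.25 (SE), -1.83 ± 0.24 and -3.88 ± 0.25, on the scale of log2(level + 0.5). The summed level of the 15 pachytene spermatocyte markers was lower in KO as well: 400 to 567 against 629 to 811 at P14, 738 to 822 against 1560 to 2410 in P18 testis and 1090 to 1200 against 2610 to 4770 in spermatocytes. Its part in the difference of Fcgr3 was not tested.

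Ordered by mean level, Fcgr3 was highest in Het spermatocytes and Het P18 testis, whose libraries overlapped. Het P14 testis, KO P18 testis and KO P14 testis followed. KO spermatocytes came last, below every library of every other group. Groups next to each other in this order overlapped except at 3 steps: Het P18 testis was above Het P14 testis, KO P18 testis was above KO P14 testis, and KO P14 testis was above KO spermatocytes.

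**Figure D1:**
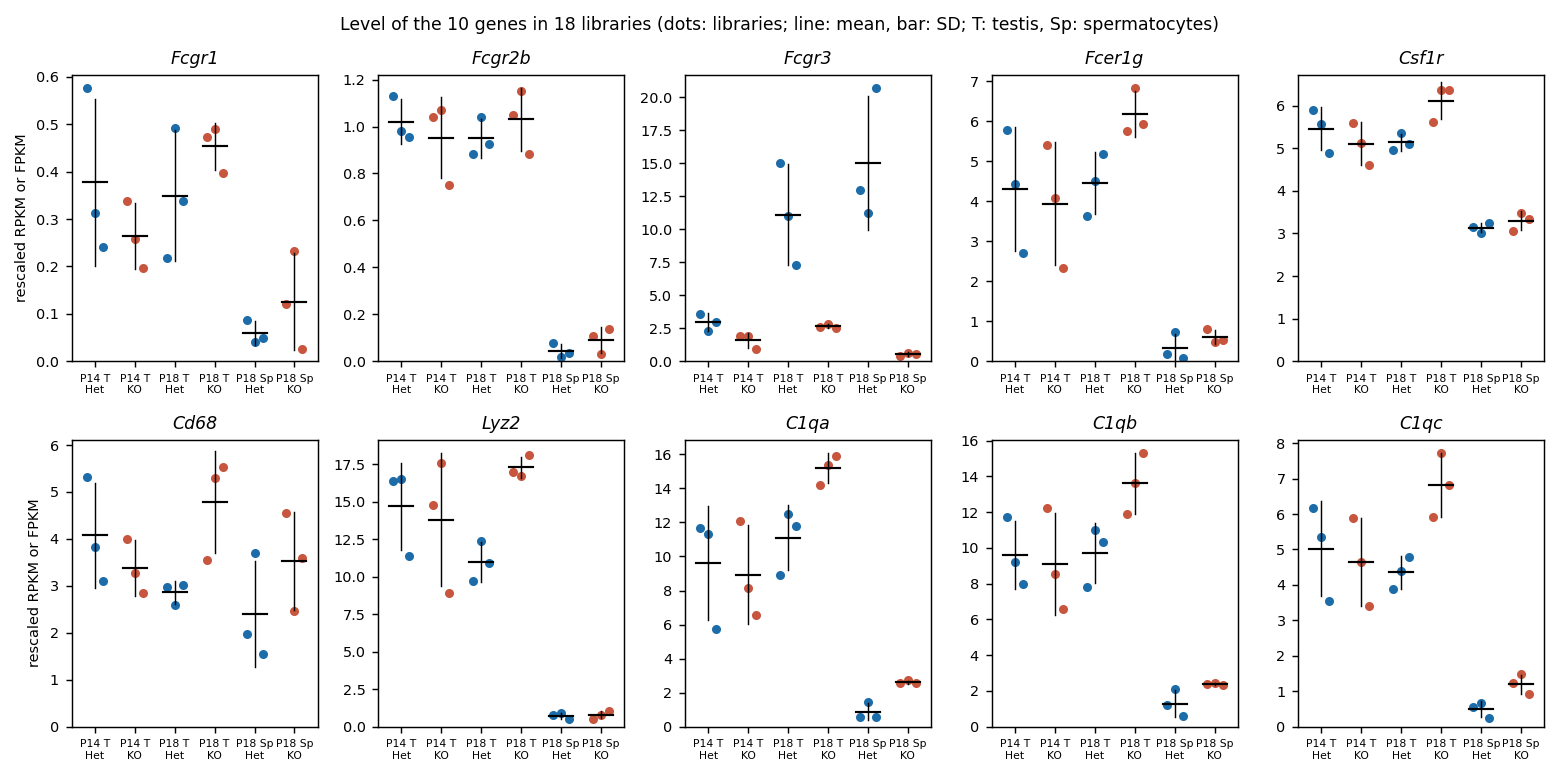
Level of each of the 10 genes (vertical axis, rescaled RPKM or FPKM, starting at 0 and scaled per gene) in the 6 groups: dots are libraries (blue Het, red KO), the horizontal line is the mean and the bar the SD of 3 libraries. Fcgr3 is highest in Het P18 testis and Het spermatocytes, whereas Lyz2 and the 3 C1q genes are low in both spermatocyte groups.

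Cfap126, a gene for a protein of motile cilia, is the nearest protein-coding gene upstream, 49.0 kb away on the opposite strand (chr1:171113918-171126967). Cfap126 was at 7.60, 5.27 and 4.36 in Het P18 testis and 1.56, 1.46 and 1.58 in KO, and it fell by 1.59 ± 0.19 on the log2 scale (limma, adjusted p = 0.00341). In spermatocytes it was at 4.85, 4.19 and 8.90 in Het and 0.530, 0.532 and 0.711 in KO, a difference of -2.51 ± 0.27. It passed the filter there only through the Het libraries, so no test is given. At P14 its difference of -0.28 ± 0.13 did not pass the test (adjusted p = 0.573, limma). On the other side, Fcgr4, an activating receptor 21.4 kb away, had 0 to 5 reads in any library, too few to compare. Mir6546 had 3, 14 and 6 reads over the 3 Het libraries of P14 testis, P18 testis and spermatocytes, and 0, 2 and 0 reads over the KO libraries. These reads came from a poly(A) library and are too few for a fold change.

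Over the 18 libraries and among 12589 protein-coding genes, the profiles most like that of Fcgr3 on log2(level + 0.5) were Lrrc61 (Pearson r = 0.987), Dnajb2, a co-chaperone (0.979), Bag5, a regulator of Hsp70 chaperones (0.979), Ldha, the A subunit of lactate dehydrogenase (0.979), and Fam161a, a centrosomal and ciliary protein (0.978). Cfap126 was next at 0.977. These values are descriptions, since all genes share the libraries and the 6 groups. The other 9 members were left out of this ranking. Their r with Fcgr3 ran from -0.468 to -0.032. These r include the KO-to-Het differences that chose the genes, so nothing is read from them. The KO-minus-Het difference of Lrrc61 was -1.45 ± 0.17 in P18 testis and -3.51 ± 0.22 in spermatocytes, given without a test because the gene was chosen for its likeness to Fcgr3.

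**Figure D2:**
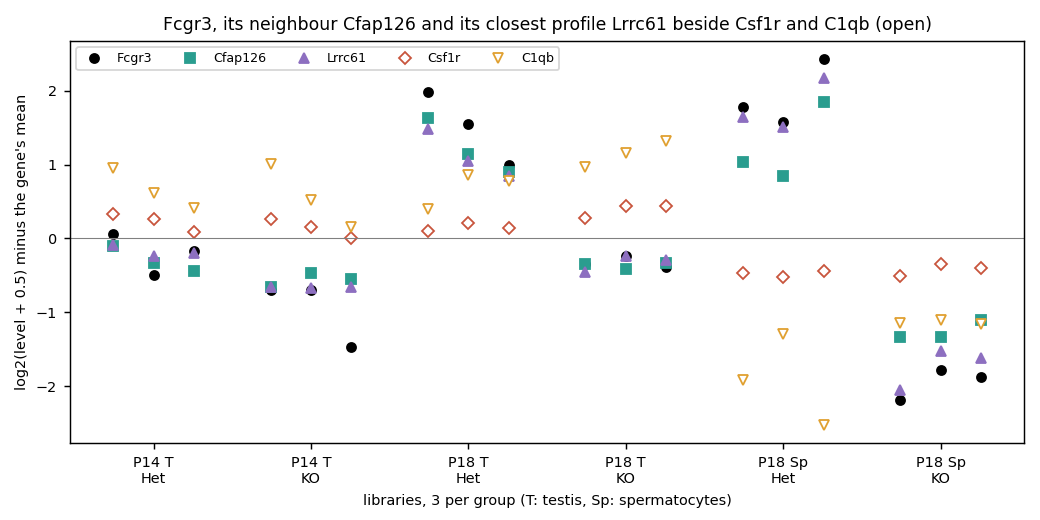
Level of 5 genes in each library, as log2(level + 0.5) minus the gene's mean over 18 libraries (vertical axis), by group and library (horizontal axis). Fcgr3, Cfap126 and Lrrc61 (filled) are high in the Het P18 groups and low in KO spermatocytes, whereas Csf1r and C1qb (open) are lower in Het spermatocytes than in Het P18 testis. The annotated length of Csf1r differs between P14 and P18, so its points are not comparable between ages.

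Of the other receptors, Fcgr1, the high-affinity IgG receptor, was at 0.577 or less in every library (9 to 26 reads in testis, 1 to 7 in spermatocytes). It passed the filter on low values, a level of at least 1 in at least 3 libraries, in no comparison. Fcgr2b, the inhibitory receptor, was at 0.753 to 1.15 in all testis libraries and at 0.0186 to 0.138 in spermatocytes (1 to 12 reads). Its KO-minus-Het difference was -0.07 ± 0.15 in P14 testis and 0.07 ± 0.17 in P18 testis, and its groups overlapped in both. Fcgr2b and Fcgr3 share sequence. Of the 50-base words of Fcgr2b, 6.95% occur in some other gene, mainly Fcgr3. Of those of Fcgr3, 9.58% do, mainly in Fcgr2b. Reads there could be assigned to either gene or to neither. The counting rule for such reads is not given in the sources used here.

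The signalling chain Fcer1g did not follow Fcgr3. It was at 3.64, 4.51 and 5.19 in Het P18 testis (4.45 ± 0.777) and at 5.76, 6.83 and 5.94 in KO (6.18 ± 0.576), every KO library above every Het library. In spermatocytes it was at 0.173, 0.740 and 0.0741 in Het and 0.806, 0.491 and 0.532 in KO, and the groups overlapped. In P18 testis the differences were -1.83 ± 0.24 for the activating receptor and 0.44 ± 0.14 for its signalling partner. Opposite directions were part of the choice of the genes, so nothing is read from them. In Het spermatocytes the mean level of Fcgr3, 15.0, stood beside 0.329 for Fcer1g.

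Among the macrophage markers, Csf1r was at 4.96, 5.37 and 5.09 in Het P18 testis (5.14 ± 0.206) and 5.62, 6.37 and 6.38 in KO (6.12 ± 0.435). Cd68 was at 2.98, 2.58 and 3.01 in Het (2.86 ± 0.239) and 3.54, 5.30 and 5.54 in KO (4.79 ± 1.09). Lyz2 was at 9.73, 12.4 and 10.9 in Het (11.0 ± 1.35) and 17.0, 16.7 and 18.1 in KO (17.3 ± 0.711). In none of the 3 did the groups overlap, and the KO mean was 119%, 168% and 157% of the Het mean.

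The C1q chains are encoded side by side on chromosome 4, and their levels had the same order of groups at P18. C1qa was at 8.89, 12.5 and 11.8 in Het P18 testis (11.1 ± 1.91) and 14.2, 15.4 and 15.9 in KO (15.2 ± 0.875). C1qb was at 7.81, 11.0 and 10.3 in Het (9.69 ± 1.67) and 11.9, 13.6 and 15.3 in KO (13.6 ± 1.70). C1qc was at 3.88, 4.38 and 4.79 in Het (4.35 ± 0.457) and 5.91, 7.72 and 6.83 in KO (6.82 ± 0.902). The KO means were thus 137%, 140% and 157% of the Het means, with no overlap.

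In P18 testis, then, 7 of the 10 genes were higher in KO without overlap, and over all genes tested 16.9% were. Only Fcgr3 of the 10 was lower without overlap, and over all genes 28.8% were. Because this contrast chose the genes, nothing is read from these shares. The 9 genes other than Fcgr3 all had a positive difference, from 0.07 for Fcgr2b to 0.64 ± 0.17 for Cd68, with a median of 0.45, where the median of all genes tested was 0.00. In bulk RNA, fewer cells of a type and less RNA per cell cannot be told apart. The summed level of 15 Sertoli markers was also higher in KO P18 testis, at 1590 to 1650 against 1210 to 1530, and that of 9 Leydig markers was 220 to 266 against 185 to 226, with overlap. The part of these in the differences was not tested.

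At P14 no gene but Fcgr3 stood apart, and Fcgr3 passed the filter there only through the Het libraries. Fcer1g was at 5.79, 4.43 and 2.72 in Het and 5.41, 4.08 and 2.33 in KO, and Cd68 ran from 3.10 to 5.31 in Het and from 2.84 to 4.0 in KO. Csf1r was at 5.90, 5.58 and 4.90 in Het and 5.60, 5.13 and 4.60 in KO. Lyz2 was at 16.4, 16.5 and 11.4 in Het and 14.8, 17.6 and 8.90 in KO, and C1qa was at 11.7, 11.3 and 5.76 in Het and 12.1, 8.15 and 6.54 in KO. In both genotypes the third library was the lowest of its group for Fcer1g, Csf1r, Cd68, Lyz2 and the 3 C1q genes. The differences of the 9 genes other than Fcgr3 ran from -0.22 ± 0.19 for Cd68 to -0.07 ± 0.15 for Fcgr2b, all overlapping, with a median of -0.10. Fcgr3 was 1 of 10 genes lower without overlap, beside 11.9% of all genes, and 0 of 10 were higher without overlap, beside 4.04%. Nothing is read from these shares either.

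In spermatocytes, the C1q genes were the ones that stood apart besides Fcgr3. C1qa was at 0.581, 1.45 and 0.560 in Het and 2.56, 2.72 and 2.55 in KO, a difference of 1.25 ± 0.26. C1qb was at 1.18, 2.08 and 0.595 in Het and 2.37, 2.44 and 2.32 in KO (0.78 ± 0.30). C1qc was at 0.547, 0.670 and 0.235 in Het and 1.22, 1.47 and 0.928 in KO (0.81 ± 0.24). Their KO means were 302%, 185% and 249% of the Het means, and no groups overlapped. The Het levels rest on few reads per library: 8 to 14 for C1qa, 10 to 21 for C1qb and 7 to 14 for C1qc. In KO the reads were 33 to 40, 31 to 38 and 27 to 33. These levels were small beside P18 testis of the same genotype, where the KO mean of C1qa was 15.2 against 2.61 in spermatocytes.

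The other markers in spermatocytes overlapped between genotypes. Csf1r was at 3.16, 3.02 and 3.24 in Het and 3.06, 3.49 and 3.35 in KO (0.06 ± 0.13). Cd68 was at 1.98, 3.69 and 1.55 in Het and 4.55, 2.46 and 3.59 in KO (0.51 ± 0.31), and Lyz2 was at 0.746, 0.901 and 0.492 in Het and 0.535, 0.782 and 1.01 in KO. Only 5 of the 10 genes passed the filter in spermatocytes, namely Fcgr3, Csf1r, Cd68, C1qa and C1qb. Fcgr3 passed only through the Het libraries, and C1qa and C1qb only through the KO libraries. Of the 10, 3 were higher without overlap, beside 19.3% of all genes, and Fcgr3 was lower, beside 32.9%. Nothing is read from these shares, which the rule fixed. The summed level of 15 Sertoli markers was 84.4 to 119 in KO and 92.1 to 139 in Het spermatocytes, and that of 14 T, B and NK cell markers was 4.29 to 6.82 and 4.39 to 5.57.

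**Figure D3:**
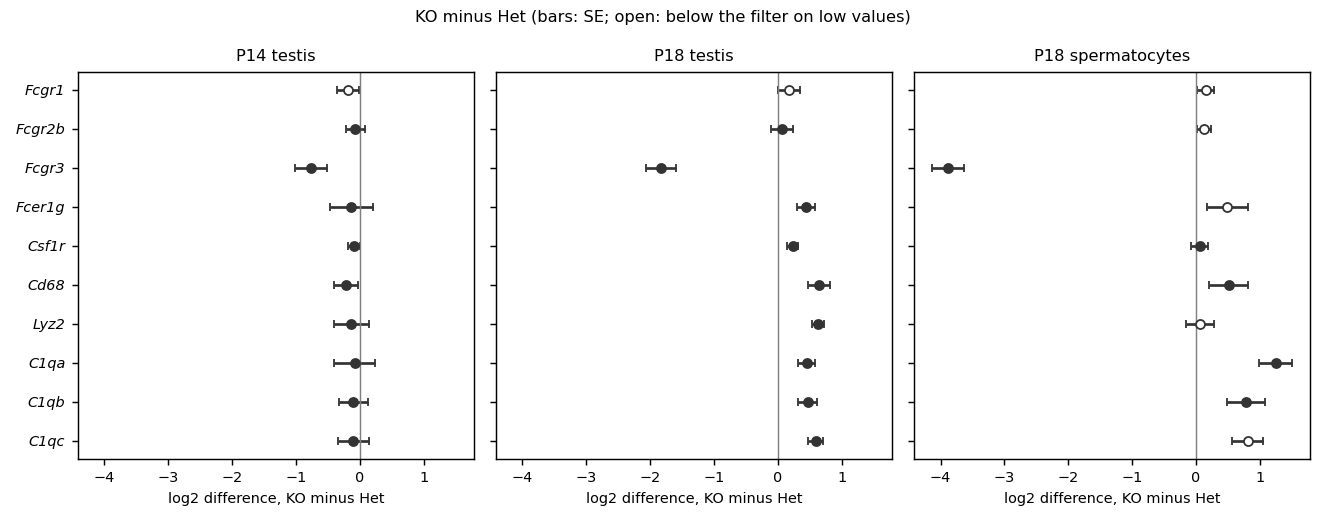
KO minus Het difference of each gene (horizontal axis, log2(level + 0.5), 1 scale for the 3 panels) in P14 testis, P18 testis and P18 spermatocytes. Points are fitted differences, bars are SE and open points are genes below the filter. Fcgr3 lies at -0.76, -1.83 and -3.88, and the other genes lie near 0 at P14 and at or above 0 at P18.

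The comparison of cell fractions asks how much of each transcript was left in isolated spermatocytes. It was not itself used to pick the genes, but its libraries were. In Het, 8 of the 10 genes passed the filter, and 5 of these (Fcer1g, Lyz2, C1qa, C1qb and C1qc) would not have passed on their spermatocyte libraries, so their number supports nothing and no test is given for them. Their spermatocytes-minus-testis differences on the log2 scale were -3.25 ± 0.18 for Lyz2, -3.13 ± 0.27 for C1qa, -2.65 ± 0.31 for Fcer1g, -2.59 ± 0.32 for C1qb and -2.33 ± 0.21 for C1qc. The mean in spermatocytes was 6.47% of that in testis for Lyz2, 7.39% for Fcer1g and 13.3% for C1qb. Over all genes, 28.2% fell and 23.8% rose in this comparison.

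Csf1r, Cd68 and Fcgr3 were above 1 in every Het library of both fractions. Csf1r fell by 0.63 ± 0.11 (limma, adjusted p = 0.00337), to 61.1% of its testis mean. Cd68 differed by -0.28 ± 0.27 and did not pass the test (adjusted p = 0.420, limma). It passed without the second Het spermatocyte library, with a difference of -0.57 (adjusted p = 0.0329, limma). Fcgr3 differed by 0.42 ± 0.32 and did not pass either (adjusted p = 0.295, limma), with Het spermatocytes at 11.2 to 20.7 beside Het testis at 7.31 to 15.0. The summed level of 9 Leydig cell markers, another interstitial cell type, was 6.40 to 6.60 in Het spermatocytes and 185 to 226 in Het testis. That of 8 peritubular myoid markers was 76.6 to 202 and 117 to 152, and that of 14 T, B and NK cell markers was 4.39 to 5.57 and 3.09 to 3.60. The part of these cells in the level of Fcgr3 was not tested.

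In KO, Fcgr3 was at 2.6, 2.83 and 2.52 in testis and at 0.361, 0.642 and 0.574 in spermatocytes, a difference of -1.63 ± 0.15. Fcgr3, Fcer1g, Lyz2 and C1qc passed the filter there only through the testis libraries, so no test is given for them. The spermatocyte mean of Fcgr3 was 19.8% of the testis mean, beside 17.2% for C1qa, 17.5% for C1qb, 17.7% for C1qc and 9.87% for Fcer1g. The remaining members ran from 4.49% for Lyz2 to 73.7% for Cd68. Of the 4 genes that would have passed on either fraction alone, C1qa fell by 2.33 ± 0.07 (limma, adjusted p = 2.13e-06) and C1qb fell by 2.28 ± 0.10 (adjusted p = 5.7e-06, limma). Csf1r fell by 0.80 ± 0.09, to 53.9% (adjusted p = 0.000232, limma), and Cd68 differed by -0.40 ± 0.24 without passing (adjusted p = 0.173, limma). Over all genes, 39.5% fell and 31.5% rose. Whether the change between fractions differed between genotypes was not tested, and the fractions were deposited in different units, so unit and fraction cannot be told apart.

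Csf1r in spermatocytes rests on 162 to 289 reads in the Het libraries. Its 3′ end overlaps Hmgxb3 on the opposite strand, and 14.3% of its 50-base words occur in some other gene, mainly Hmgxb3. Hmgxb3, a gene for an HMG-box protein, was at 7.61 to 8.96 in Het spermatocytes and 6.87 to 7.17 in Het P18 testis (0.25 ± 0.11, limma, adjusted p = 0.0862). Whether the counting used strand is not given in the sources used here, and the part of Hmgxb3 reads in the level of Csf1r was not tested. Lyz2 shares 15.4% of its words with other genes, mainly its neighbour Lyz1, a second lysozyme gene 5.48 kb away. Cd68 shares none, and lies 0.783 kb downstream of Eif4a1, a translation initiation factor at 57.1 to 60.4 in Het spermatocytes.

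Between ages in testis, Fcgr3 rose in Het by 1.70 ± 0.27 (limma, adjusted p = 0.00236). It was at 2.30 to 3.61 at P14 and 7.31 to 15.0 at P18, with all 3 P18 libraries above all 3 at P14. Fcgr3 was chosen on KO-to-Het differences that use these same Het libraries, so it is not tested independently of that choice. It was the only 1 of the 6 members tested to rise, beside 28.6% of all genes, and none fell, beside 29.1% (limma). None fell at an unadjusted p under 0.05 (limma), beside 31.6%, or with voom on the reads, beside 31.3%. C1qa differed by 0.24 ± 0.28 (adjusted p = 0.490, limma), C1qb by 0.01 and C1qc by -0.16, and Cd68 by -0.42 ± 0.18 (adjusted p = 0.0911, limma). Cd68 passed with median-of-ratios scaling (-0.52, adjusted p = 0.046, limma) and without the third P14 Het library (-0.58, adjusted p = 0.037, limma). Cfap126 rose alongside, by 1.51 ± 0.21 (adjusted p = 0.00119, limma). Csf1r and Lyz2 were left out of this comparison because their annotated lengths differed between the sets, and age and set, with its unit, cannot be told apart.

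In KO, Fcgr3 differed between ages by 0.64 ± 0.22, from 0.914 to 1.93 at P14 to 2.52 to 2.83 at P18. It would not have passed the filter on its P14 libraries, so no test is given for it. C1qa rose by 0.77 ± 0.21 (adjusted p = 0.0257, limma), from 6.54 to 12.1 at P14 to 14.2 to 15.9 at P18, and was the only member called of 7 tested, beside 22.0% of all genes higher and 25.2% lower. That call was lost without any 1 of 5 of the 6 libraries (adjusted p 0.0523 to 0.0868, limma), the exception being the first P14 KO library. C1qb differed by 0.59 (adjusted p = 0.0703, limma), C1qc by 0.53 (0.0658), Fcer1g by 0.65 (0.0909) and Cd68 by 0.44 (0.0999), none past the threshold. Of the 7, 5 were higher at an unadjusted p under 0.05 (limma), beside 26.5% of all genes. With values as deposited 6 passed, beside 7654 of 14750 genes, and with voom 6 did, beside 24.5%. Fcgr3 is in each of these counts, and nothing is read from them. The call of C1qa was also lost with the replicate block (limma, adjusted p = 0.0515). The Het and KO age comparisons use the same P18 testis libraries as the fraction comparisons, so these comparisons are not independent of each other. All of them also share libraries with the KO-to-Het differences that chose the genes. The tests of the members are therefore not free of that choice.

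**Figure D4:**
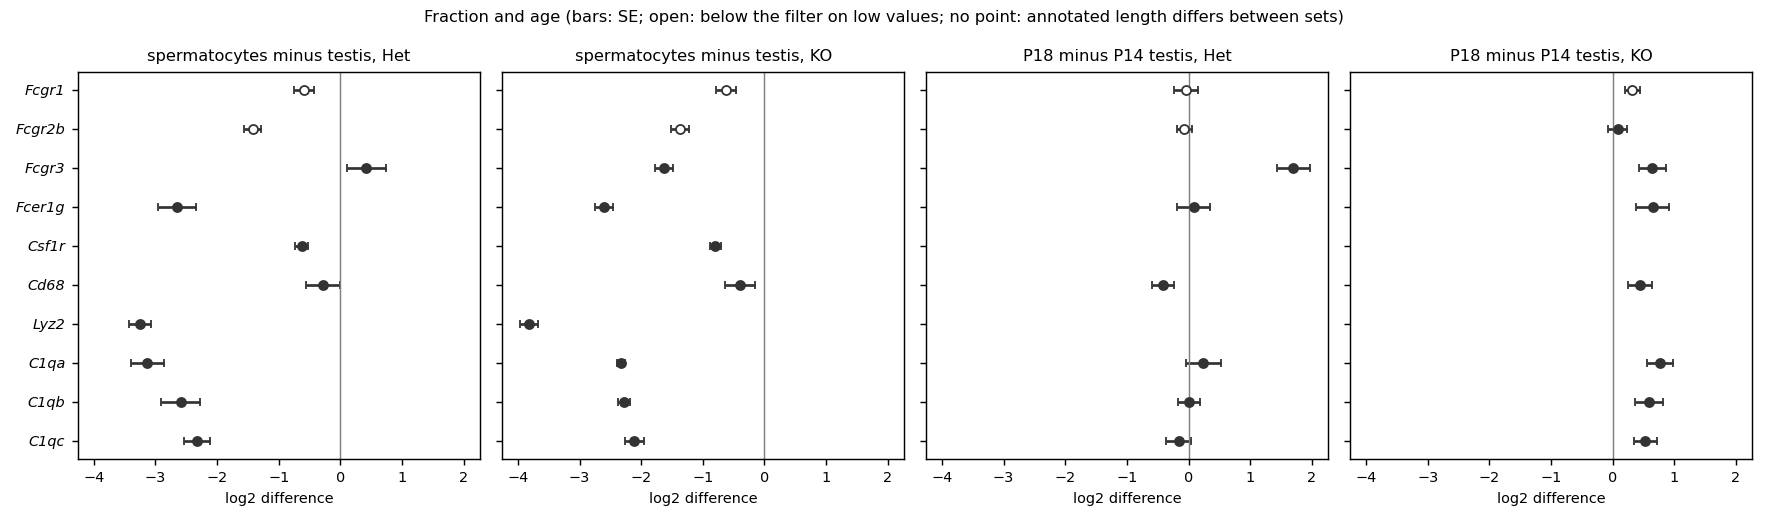
Difference of each gene between spermatocytes and testis at P18 and between P18 and P14 testis, in Het and KO (horizontal axis, log2(level + 0.5), 1 scale for the 4 panels). Points are fitted differences, bars are SE, open points are genes below the filter, and Csf1r and Lyz2 have no point for age. Fcgr3 lies at 0.42 in Het and -1.63 in KO for the fraction, and at 1.70 and 0.64 for age.

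Genes around the 10 were read from 4 lists. Of 14 relatives of the Fc receptors, such as Fcgrt, Fcer1a and Fcrls, 3 were tested in P18 testis and none passed between KO and Het. Of 20 genes of Fc receptor signalling, 8 were tested there and none passed. Over all 4 lists, 16 of 36 genes tested were higher and 3 lower at an unadjusted p under 0.05 (limma), beside 11.9% and 25.6% of all genes. Voom on the reads called 10 higher and 3 lower, beside 5.52% and 20.4% of all genes. Of 10 genes for CSF1 receptor ligands and classical complement, 9 were tested. Only C4b, a complement component cleaved downstream of C1q, was called, as lower, with a difference of -0.76 ± 0.21. C4b was at 1.12 to 1.35 in Het and 0.385 to 0.684 in KO. It passed the filter only through the Het libraries, so its p-value is not given and nothing is read from the call. The call was lost with a pseudocount of 0.1 and with the replicate block. It was also lost without Het replicate 1 or 2 and without any KO replicate. Over all genes tested, 19.3% fell and 2.89% rose.

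Of 32 other macrophage genes, 16 were tested in P18 testis and 3 rose in KO: the chemokine receptor Cx3cr1 by 0.63 ± 0.12 (limma, adjusted p = 0.0138), the lysosomal protease Ctss by 0.49 ± 0.09 (adjusted p = 0.0110, limma) and the pore-forming protein Mpeg1 by 0.30 ± 0.07 (adjusted p = 0.0244, limma). None fell, and the median of the 16 was 0.30 beside 0.00 over all genes. The summed level of the 32 was 72.5 to 81.4 in Het and 93.0 to 100 in KO. Over the 4 lists, 3 genes rose here, beside 2.89% of all genes. With the values as deposited, which move the median of all genes by 0.12, 15 did, beside 2473 of 18786 genes. With voom 10 did, beside 5.52%. The cause was not tested.

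In spermatocytes, 7 of the 20 signalling genes were tested and 3 were called lower in KO, beside 25.8% of all genes. The kinase subunit Pik3cd fell by 0.95 ± 0.22 (limma, adjusted p = 0.0157). The inositol phosphatase Inpp5d and the adaptor Lat2 passed the filter only through the Het libraries, and differed by -0.76 ± 0.23 and -0.69 ± 0.22. No gene of the 4 lists rose by limma, beside 8.90% of all genes, 2 did at an unadjusted p under 0.05, beside 14.6%, and 0 did with voom, beside 10.4%. At P14 none of the 35 genes tested in the 4 lists passed by limma, beside 0.0111% of all genes called higher and 0.188% lower. None did at an unadjusted p under 0.05 (limma), beside 1.59% higher and 8.09% lower. With voom none did either, beside 0.0202% and 1.77%.

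Between spermatocytes and testis in Het, beside 23.8% of all genes higher and 28.2% lower, the 4 lists were counted the same way. Of 3 relatives tested, 0 were called higher and 3 lower. Of 8 signalling genes, 2 were higher and 2 lower, with a median of 0.32. Of 8 genes for CSF1 receptor ligands and complement, 1 was higher and 5 lower, with a median of -0.82. Of 14 other macrophage genes, 2 were higher and 12 lower, with a median of -1.59, where the median of all genes was 0.02. Of the 22 called lower, 16 had passed the filter only through the testis libraries, and nothing is read from their number.

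Csf1r had as its closest profiles over the 18 libraries Fcrls, an Fc receptor-like scavenger receptor (r = 0.984), Stab1, a scavenger receptor of macrophages and endothelium (0.983), Avpr1a, a vasopressin receptor (0.982), Cntnap1 (0.980) and Atp5g1, a subunit of ATP synthase (0.979). The members were left out of this ranking too. The r of Csf1r with the other members was 0.896 to 0.971, except 0.522 with Cd68 and -0.043 with Fcgr3. Csf1r and Lyz2 had another annotated length at P14 than at P18, so every r of Csf1r holds that offset. The r also include the KO-to-Het differences that chose the genes, and nothing is read from them. Both scavenger receptors were chosen for their likeness to Csf1r and were below 1 in every Het spermatocyte library, so their values carry no test. From testis to spermatocytes in Het, Fcrls differed by -1.82 ± 0.19 and Stab1 by -1.59 ± 0.18. Between KO and Het in P18 testis they differed by 0.46 ± 0.22 and 0.46 ± 0.20.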

How the data were processed

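The authors deposited 1 table per library, with a gene symbol and an RPKM value (P14 testis, P18 spermatocytes) or an FPKM value (P18 testis). The submitters' processing notes name the build GRCm38, the aligner STAR 2.6.1a, the counter featureCounts and edgeR 3.28.1, besides CASAVA 1.9, with no settings. Low values fell on whole multiples of what 1 read is worth (within 0.02 of a read), which gave the reads behind each value. Older symbols (452) were renamed.

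Values were divided by factors from trimmed means of M values over all 18 libraries (trims of 30% and 5%, on 42247 genes of the same length in every table). Genes with a level of at least 1 in at least 3 of the 6 libraries of a comparison were tested with limma 3.58.1 (R 4.3.3; trend and robust) on log2(level + 0.5), with two-sided p-values adjusted by Benjamini-Hochberg and a threshold of 0.05. A fold change on this scale understates the change of low genes. The script was tested on simulated data. Each of the 7 comparisons had its own fit. Age comparisons used genes of the same length in both sets.

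The 10 genes and all lists were chosen with earlier results of these data known. Genes named are the members, Zfp541, overlapping and nearest protein-coding genes within 100 kb, up to 2 listed genes per direction and list that passed between KO and Het, and the 5 closest profiles of Fcgr3 and Csf1r. Mpeg1 and Lat2 were named after their values were seen, as members of counts of 5 or fewer. Alternatives were other pseudocounts, filters and scalings, voom on the reads, a replicate block, 1 fit over all libraries and leaving out each library. Scaling within each comparison was added after seeing the data. Same-numbered libraries did not deviate together in every pair, so the numbers were not taken to pair the samples.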

Additional observations from a re-analysis of the deposited data

How the results depend on the processing

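Depth limits Fcgr1 and the spermatocyte levels of Fcgr2b, Fcer1g, Lyz2 and the 3 C1q genes, which rest on few reads. The same holds for Fcgr3 in KO spermatocytes (8 to 15 reads). Between KO and Het, the difference of Fcgr3 and of the other members kept its sign under every pseudocount, filter, scaling, block and fit that gave a value. At P14, leaving out 1 library turned the sign of Fcgr2b, Fcer1g, Lyz2, C1qa, C1qb and C1qc (C1qa -0.39 to 0.11). In spermatocytes, that of Fcgr3 was -4.57 with a pseudocount of 0.1, -3.35 with 1 and -4.80 with voom, and leaving out 1 library gave -3.96 to -3.75. Leaving out 1 library gave -0.90 to -0.50 at P14 and -2.08 to -1.59 in P18 testis. Over the 4 lists in P18 testis, 3 genes rose, beside 2.89% of all genes. With values as deposited 15 did, beside 2473 of 18786 genes, and with median-of-ratios scaling 16, beside 2904 of 18115. With voom 10 did, beside 5.52%, and with scaling within the comparison 9, beside 828 of 18798. Without 1 library 0 to 4 did, beside 66 to 1115 genes. There 1 fell, beside 19.3% of all genes. With a pseudocount of 0.1, a mean of at least 5 or the replicate block 0 did, beside 3518 of 18336, 2639 of 10109 and 2667 of 18336 genes. With no filter 2 did, beside 3150 of 39372. With voom or 1 fit over all libraries 3 did, beside 20.4% and 3260 of 17058. Without 1 library 0 to 2 did, beside 1746 to 3045 genes. In spermatocytes none of these genes rose, beside 8.90% of all genes. With values as deposited 5 did, beside 3986 of 15960 genes. With median-of-ratios scaling 3 did, beside 3161 of 16025, and with 1 fit over all libraries 3, beside 2923 of 14950. With scaling within the comparison 1 did, beside 1993 of 15889. In the main fit 3 fell, beside 25.8% of all genes. With a mean of at least 5, 0 fell, beside 2857 of 9134. With each other scaling 1 did, and 0 to 2 without 1 library, beside 2319 to 3759 genes. The cause was not tested.

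From testis to spermatocytes, 6 members were called lower in Het and 7 in KO, beside 28.2% and 39.5% of all genes. Of these, 5 and 4 passed the filter through the testis libraries alone, so nothing is read from their number. With a mean of at least 5, 3 were lower in each, beside 2157 of 10049 and 3056 of 9188 genes. Leaving out 1 library gave 3 to 7 in Het, beside 2601 to 4974 genes, and 5 to 7 in KO, beside 4274 to 6841. The count of 3 came without any 1 Het testis library, where fewer genes reach the filter. Between ages, Fcgr3 rose in Het throughout, by 1.47 to 1.96 without 1 library. There 0 members fell, beside 29.1% of all genes, and 1 did with median-of-ratios scaling, beside 5519 of 14993. Without 1 library 0 to 1 did, beside 2278 to 4532 genes. In KO 1 member rose, beside 22.0% of all genes, and 2 did with a pseudocount of 1, beside 3243 of 14615. With values as deposited 6 did, beside 7654 of 14750, and with voom 6, beside 24.5%. With the replicate block 0 did, beside 2600 of 14615, and without 1 library 0 to 4, beside 2202 to 2791 genes. Signs turned for small differences in Het: without 1 library Fcer1g ran from -0.18 to 0.30, C1qa from -0.07 to 0.41 and C1qb from -0.11 to 0.15; Fcer1g was -0.02 with median-of-ratios scaling and -0.18 and -0.02 without replicate 3 of P14 and of P18, C1qa was -0.07 without replicate 3 of P14, C1qb was -0.10 with median-of-ratios scaling and -0.01, -0.11, -0.08 and -0.03 without replicate 2 or 3 of P14 or of P18, and C1qc was 0.01 with values as deposited. In KO Fcgr2b ran from -0.03, without replicate 3 of P14, to 0.14.

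Values as deposited moved the median of all genes by 0.12 in P18 testis, where 2473 rose and 2860 fell instead of 530 and 3542, and to 0.17 in spermatocytes, with 3986 and 3351 instead of 1418 and 4108. The replicate block ended the call of C1qa between ages in KO (limma, adjusted p = 0.0515). Same-numbered Het and KO libraries correlated by 0.072 to 0.094 at P14, -0.031 to 0.023 in P18 testis and 0.053 to 0.232 in spermatocytes, and each correlated best with its own number in 3 of 3, 1 of 3 and 3 of 3 pairs.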
